A study of Mus musculus with 15 samples.

Results

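Retinoid handling genes are described here in endothelial cells sorted from mouse brain, heart and liver. The 9 genes were chosen by name for their place in vitamin A metabolism: Stra6, Rbp4, Rbp7, Lrat, Aldh1a1, Aldh1a2, Aldh1a3, Rarb and Rarres2. All 9 were found among the 19938 genes that the array annotation names by a single symbol, and each had 1 probe set. Vitamin A travels in blood as retinol bound to a carrier protein, enters cells, and is either stored as esters or oxidised through retinaldehyde to retinoic acid. Retinoic acid binds nuclear receptors that switch genes on or off, and it is cleared by enzymes of the Cyp26 family. Liver is the main store of vitamin A in the body, and most of that store lies in stellate cells, the neighbours of the sinusoidal endothelium.

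The cells came from Tie2-GFP mice on the FVB background, aged 8 to 12 weeks and kept on standard chow. The promoter of Tek, which encodes an endothelial receptor also called Tie2, drives green fluorescent protein in these mice, and GFP-positive cells of digested tissue were sorted straight into lysis buffer. There were 5 arrays per tissue, and each array read 1 pool of males and females in equal parts, from 6 mice for brain, 4 for heart and 2 for liver. Brain was digested with collagenase and DNase and then trypsin, heart with collagenase I, and liver with dispase at room temperature followed by removal of hepatocytes and a Percoll gradient. Tissue, enzyme, digestion temperature and pool size cannot be told apart in this design. All values are deposited log2 array values, means are given ± SD over the 5 arrays of a tissue, and tests measure only the spread between these pools.

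The label of the cells was checked against marker genes. The mean of 12 pan-endothelial genes, among them Pecam1, Cdh5 and Kdr, lay between 10.40 and 10.71 on every array. The list includes Tek, whose promoter drove the GFP used for sorting. Single genes on it shifted in both directions: the log2 difference for brain minus liver was 1.52 for Flt1 and -0.98 for Kdr. Markers of other cells were also present. The mean of 14 cardiomyocyte genes was 7.81 to 9.32 on the heart arrays against 5.62 to 6.07 on the others. The mean of 11 fibroblast genes was 6.34 to 7.45 on the heart arrays against 5.35 to 5.86 on the others. The mean of 10 macrophage genes was 8.23, 8.82 and 8.51 on liver replicates 1, 3 and 4 and 6.04 and 5.62 on replicates 2 and 5. The mean of 10 hepatocyte genes was 6.97 to 7.62 in liver and at most 5.34 elsewhere. As a guide to unspecific signal, the tissue means of 1027 olfactory receptor genes were used. Their 95th percentile was 5.66 (brain), 5.77 (heart) and 5.64 (liver), and a gene whose mean lay under it is called dim in that tissue.

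Stra6 and Aldh1a1 were highest on the brain arrays, Rbp7 on the heart arrays, and Rarb and Rbp4 on the liver arrays. Which cells in the pools carried each signal was not tested. Lrat was also higher in liver than in both others, at a low signal. Rarres2 was higher in heart than in liver by a margin that rested on single arrays in the fit without replicate numbers. Aldh1a2 and Aldh1a3 did not pass the test between any tissues. A call means an adjusted p under 0.05 from limma, with Benjamini-Hochberg adjustment over all 19938 genes within a comparison.

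**Figure D1:**
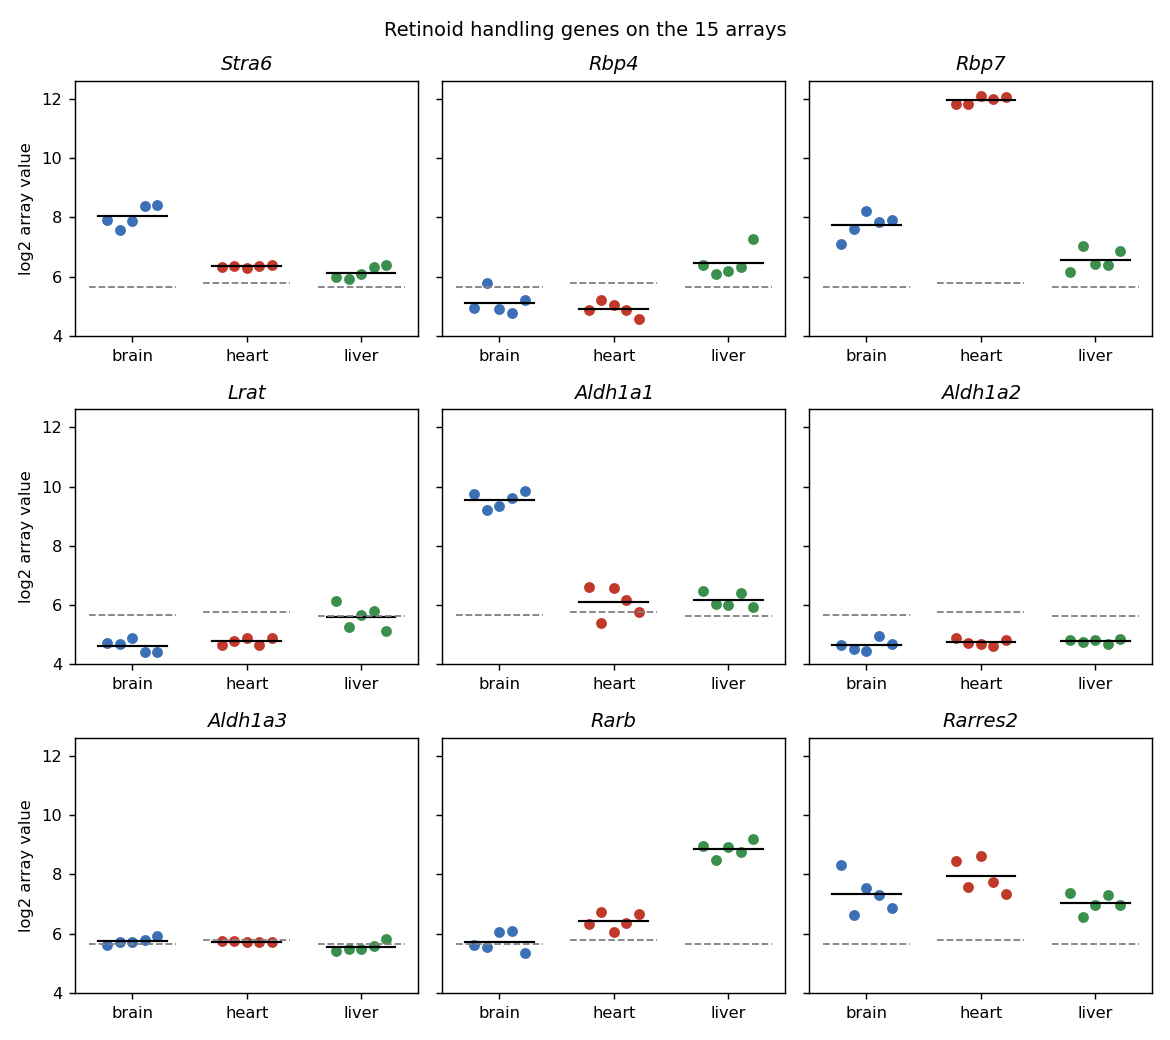
Log2 array values of the 9 genes on the 15 arrays, 1 panel per gene, with points for the replicates of brain, heart and liver, solid lines for the tissue means and dashed lines for the 95th percentile of olfactory receptor genes. Stra6 and Aldh1a1 stand highest in brain, Rbp7 in heart and Rarb in liver, and Aldh1a2 stays under the dashed line on all arrays.

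Rbp4 is the carrier that takes retinol through the blood, and hepatocytes are its main source. Its log2 values were 6.39, 6.08, 6.18, 6.34 and 7.28 on liver replicates 1 to 5. In brain they were 4.94, 5.78, 4.91, 4.77 and 5.23, and in heart 4.88, 5.23, 5.04, 4.88 and 4.59. Every liver array lay above every brain and heart array, and liver replicate 5 stood apart from the other 4. The means were 5.12 ± 0.40 (brain), 4.92 ± 0.24 (heart) and 6.45 ± 0.48 (liver), so Rbp4 was dim in brain and heart. Liver exceeded brain 2.51-fold (log2 brain minus liver -1.33, SE 0.21, adjusted p = 0.000105) and heart 2.89-fold (heart minus liver -1.53, SE 0.21, adjusted p = 2.5e-05). Brain and heart did not differ by the test (0.20, 95% interval -0.25 to 0.65, adjusted p = 0.604).

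Hepatocyte markers moved with Rbp4 between tissues. Of 11 measured hepatocyte genes 9 were higher in liver than in both other tissues (10.4% of all genes were), and none of the 11 was dim there. The exceptions were Ttr, at 12.49 in brain and 8.44 in liver, and Cyp2e1, at 6.72 in brain and 6.66 in liver. Albumin (Alb) was 9.76, 10.18, 9.69, 9.42 and 10.32 on the liver arrays and 4.00 to 4.47 on the others. Within liver the mean of the hepatocyte list, taken without Ttr, was 7.29, 7.37, 7.18, 6.97 and 7.62. Replicate 5 was thus highest for Rbp4, for albumin and for the list, while replicates 1 to 4 did not follow one order. The part of hepatocyte RNA in the Rbp4 difference was not tested. In sorted pools such as these, fewer cells of a type and less RNA per cell cannot be told apart.

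Stra6 is the cell-surface receptor that takes retinol from Rbp4. Its brain values were 7.92, 7.56, 7.89, 8.38 and 8.43. In heart they were 6.34, 6.37, 6.29, 6.36 and 6.40, and in liver 5.98, 5.91, 6.09, 6.31 and 6.40. All brain arrays lay above all others, whereas heart and liver overlapped. The brain mean of 8.03 ± 0.36 exceeded the heart mean of 6.35 ± 0.04 by a log2 difference of 1.68 (SE 0.14, 3.21-fold, adjusted p = 9.23e-08). It exceeded the liver mean of 6.14 ± 0.21 by 1.90 (SE 0.14, 3.72-fold, adjusted p = 8.43e-09). Heart minus liver was 0.21 with a 95% interval of -0.09 to 0.51 (adjusted p = 0.296).

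Epithelial cells of the choroid plexus handle retinol in brain as well, so their markers were set beside Stra6. The mean of 8 choroid plexus genes, taken without Ttr, was 6.90, 6.15, 6.24, 6.08 and 5.90 on brain replicates 1 to 5. Replicate 1 was highest, also for Kl (7.26 against 5.24 to 5.80) and Clic6 (7.37 against 5.50 to 5.90), which mark that epithelium. The 2 highest Stra6 values came from replicates 4 and 5. The list mean was not specific to brain: it was 6.85 to 7.01 in liver, where Calml4 and Aqp1 were high. Of the 9 measured genes, Ttr included, brain had 6 higher and 1 lower than heart. Against liver, brain had 6 higher and 2 lower. Brain exceeded heart and liver alike in 4 of the 9 (4.7% of all genes) and lay under each of them in 1. Kl and Clic6, with brain means of 5.94 and 6.06, were dim in heart and liver. The part of choroid plexus RNA in the Stra6 difference was not tested.

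Rbp7 is a cellular retinol-binding protein that holds retinol inside the cell. It had the largest difference of the 9 genes in both comparisons that include heart. Heart values were 11.82, 11.83, 12.09, 12.01 and 12.06, brain values 7.09, 7.60, 8.22, 7.83 and 7.91, and liver values 6.17, 7.04, 6.43, 6.40 and 6.86. The 3 tissues did not overlap. The heart mean was 11.96 ± 0.13, the brain mean 7.73 ± 0.42 and the liver mean 6.58 ± 0.36. Heart exceeded brain 18.8-fold (brain minus heart -4.23, SE 0.18, adjusted p = 1.11e-11) and liver 41.8-fold (heart minus liver 5.39, SE 0.18, adjusted p = 2.67e-13). Brain exceeded liver 2.22-fold (1.15, SE 0.18, adjusted p = 9.94e-05).

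Cardiomyocyte markers were high in heart as well. The cardiomyocyte mean was 9.32, 8.40, 8.99, 7.81 and 7.83 on heart replicates 1 to 5, and Rbp7 was highest on replicate 3 and lowest on replicate 1, the arrays with the 2 highest of those means. Without heart replicates 1 and 3, which had the highest cardiomyocyte means, heart minus liver for Rbp7 was 5.39 (adjusted p = 5.02e-11). The 3 heart arrays left had cardiomyocyte means of 7.81 to 8.40, and the part of cardiomyocyte RNA in the Rbp7 difference was not tested.

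Lrat adds a fatty acid to retinol and so makes the esters in which vitamin A is stored. Its signal was low: 4.72, 4.71, 4.91, 4.42 and 4.42 in brain, 4.65, 4.78, 4.88, 4.65 and 4.91 in heart, and 6.13, 5.28, 5.67, 5.79 and 5.11 in liver. All liver arrays lay above all others, but the liver mean of 5.59 ± 0.41 was itself dim, as were 4.63 ± 0.21 in brain and 4.78 ± 0.12 in heart. Liver exceeded brain 1.95-fold (brain minus liver -0.96, SE 0.16, adjusted p = 0.000129) and heart 1.76-fold (heart minus liver -0.82, SE 0.16, adjusted p = 0.000657). Brain minus heart was -0.14 (95% interval -0.47 to 0.19, adjusted p = 0.625).

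Lrat is a defining gene of hepatic stellate cells, and the mean of their other markers was highest on the same liver arrays. The mean of 10 stellate cell genes, taken without Lrat, was 6.82, 6.39, 6.79, 6.88 and 6.32 on liver replicates 1 to 5. Replicates 1, 3 and 4 were highest for Lrat, for the stellate mean and for the macrophage mean. Single markers differed: Hgf was 8.88, 8.21, 9.22, 8.57 and 8.06, whereas Des was 4.49, 5.01, 5.40, 5.34 and 5.39. Of 11 measured stellate genes 3 were higher in liver than in both others, namely Lrat itself, Hgf and Colec10 (10.4% of all genes were). Between heart and liver 4 of the 11 were lower in heart and 2, Des and Dcn, were higher, with a median difference of -0.00, and Reln was dim in all 3 tissues. The part of stellate cell RNA in the Lrat difference was not tested. Without liver replicates 1, 3 and 4, brain minus liver was -0.56 (adjusted p = 0.0102) and heart minus liver -0.42, which did not pass (adjusted p = 0.0537).

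**Figure D2:**
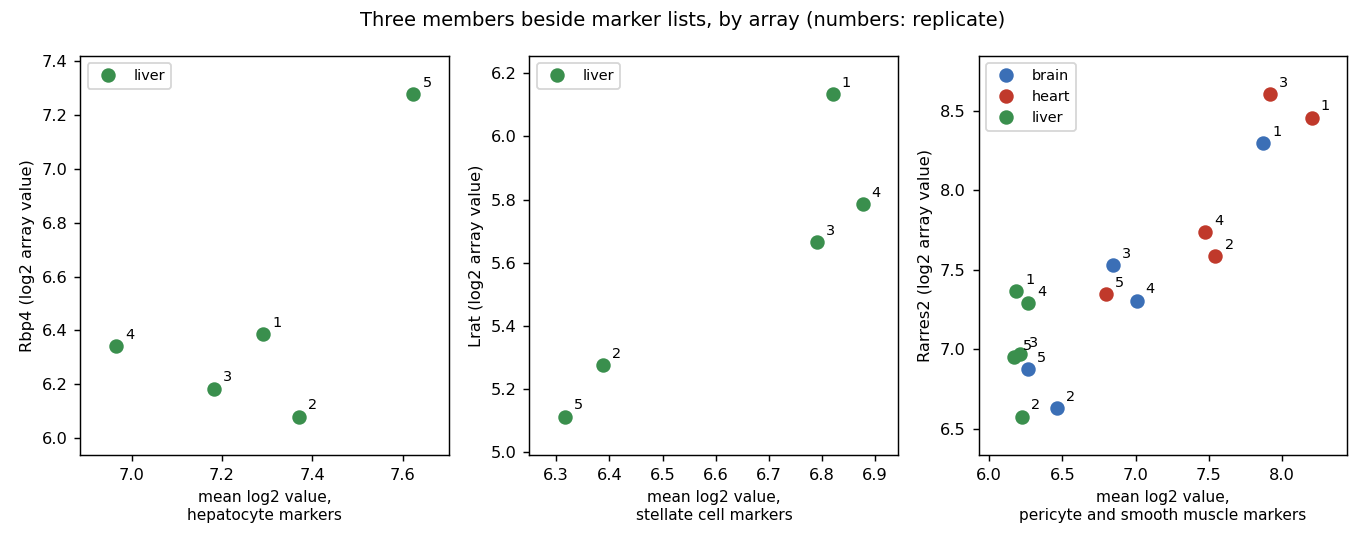
Log2 values of Rbp4 and Lrat on the 5 liver arrays and of Rarres2 on all 15 arrays (vertical axes), against the mean log2 value of hepatocyte, stellate cell, and pericyte and smooth muscle markers on the same array (horizontal axes), with the replicate number at each point. Rbp4 is highest on liver replicate 5, Lrat on liver replicates 1, 3 and 4, and Rarres2 on brain replicate 1 and heart replicates 1 and 3.

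The Aldh1a genes encode the retinaldehyde dehydrogenases, which carry out the last step to retinoic acid. Aldh1a1 was measured at 9.74, 9.21, 9.34, 9.62 and 9.83 in brain. In heart it was at 6.60, 5.41, 6.56, 6.17 and 5.78, and in liver at 6.47, 6.03, 5.99, 6.40 and 5.92. The brain arrays lay far above the rest, and heart and liver overlapped fully. The brain mean of 9.55 ± 0.27 exceeded the heart mean of 6.10 ± 0.51 by 3.44 (SE 0.20, 10.9-fold, adjusted p = 7.62e-10) and the liver mean of 6.17 ± 0.25 by 3.38 (SE 0.20, 10.4-fold, adjusted p = 3.83e-10). Heart minus liver was -0.06 (95% interval -0.49 to 0.37, adjusted p = 0.86). Markers of other brain cells were set beside Aldh1a1. Of 9 astrocyte genes 6 were dim in all 3 tissues, and their mean was 5.71 to 5.98 in brain and 5.71 to 5.90 elsewhere. Against liver, 1 of them was higher in brain (Aqp4, adjusted p = 0.00483) and 1 lower, and against heart 3 were lower and none higher. Of 9 neuron genes 7 were dim in all 3 tissues, and their mean was 5.36 to 5.51 in brain, 5.33 to 5.45 in heart and 4.71 to 5.06 in liver. Brain exceeded liver in 2 of the 9, Snap25 (adjusted p = 0.00645) and Stmn2 (adjusted p = 9.75e-12), and exceeded heart in none. Stmn2 had means of 8.79 (brain), 8.98 (heart) and 4.86 (liver). The part of these cells in the Aldh1a1 difference was not tested.

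Its relatives did not share that pattern. Aldh1a2 was dim in all 3 tissues, with means of 4.65 ± 0.20 (brain), 4.75 ± 0.11 (heart) and 4.79 ± 0.06 (liver). The adjusted p-values were 0.519 for brain against heart, 0.305 for brain against liver and 0.782 for heart against liver, and the 95% intervals of the 3 differences lay between -0.34 and 0.15. Aldh1a2 is a known product of mesothelium and epicardium, and 8 of 10 markers of those layers were dim in all tissues too. Wt1, a transcription factor of the epicardium, was not dim and lay at 8.45 to 9.34 in heart against 5.81 to 6.54 on the other arrays. Aldh1a3 had means of 5.75 ± 0.10 (brain), 5.73 ± 0.01 (heart) and 5.55 ± 0.16 (liver), close to the limit for dim genes. Brain minus liver was 0.21 (adjusted p = 0.0695) and heart minus liver 0.18 (adjusted p = 0.104), while brain minus heart was 0.02 (adjusted p = 0.888). Both differences from liver passed without liver replicate 5 (0.27 with adjusted p = 0.00937 and 0.25 with adjusted p = 0.0162), as did brain minus liver without brain replicate 1 (0.24, adjusted p = 0.0474).

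Rarb is the beta form of the retinoic acid receptor, and it is known as a gene that retinoic acid itself turns on. A retinoic acid receptor binds with a partner, a retinoid X receptor, to 2 half-sites that follow each other in the same direction with a fixed gap. Such repeats were searched on both strands of RefSeq promoter windows (mouse build GRCm38.p6), which run from 250 bases before to 50 bases after a gene's start. The half-site AGGTCA was allowed, and so were the form AGTTCA, the form GGGTCA and also the form GGTTCA, in any pair and with a gap of 1, 2 or 5 bases. Windows were at hand for 7 of the 9 genes (12 windows, all but Aldh1a3 and Rarres2) and for 53 other genes of the pathway (76 windows). With a gap of 5, the only matches were 1 window of Rarb and 1 of Cyp26a1, whose product breaks down retinoic acid. The same search found a match in 32 of 32851 windows of all genes (0.0974%). A gap of 1 gave 1 match, in Bco1, and a gap of 2 gave none, against 0.222% and 0.268% of all windows.

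The 250 bases before the start of Rarb (chr14:16575477-16575726, minus strand) and of Cyp26a1 (chr19:37697558-37697807, plus strand) are shown because they hold these repeats, printed in capitals. The match begins at position -53 from the start of Rarb and at -32 from that of Cyp26a1, where it reads on the opposite strand. The same stretch of Rbp7 (chr4:149454969-149455218, minus strand) is shown for the gene with the largest difference, and no such repeat was found in it. A match is a description of the letters and not evidence of binding.
Rarb: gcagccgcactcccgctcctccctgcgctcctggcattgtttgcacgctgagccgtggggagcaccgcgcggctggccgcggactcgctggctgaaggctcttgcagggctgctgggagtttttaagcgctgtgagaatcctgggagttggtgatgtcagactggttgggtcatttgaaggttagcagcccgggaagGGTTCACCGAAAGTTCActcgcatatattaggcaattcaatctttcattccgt
Cyp26a1: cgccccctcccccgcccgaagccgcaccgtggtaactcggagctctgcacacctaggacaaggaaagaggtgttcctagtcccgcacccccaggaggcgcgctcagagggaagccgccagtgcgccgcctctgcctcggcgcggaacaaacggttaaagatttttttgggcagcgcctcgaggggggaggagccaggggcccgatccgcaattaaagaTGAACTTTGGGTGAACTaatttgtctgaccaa
Rbp7: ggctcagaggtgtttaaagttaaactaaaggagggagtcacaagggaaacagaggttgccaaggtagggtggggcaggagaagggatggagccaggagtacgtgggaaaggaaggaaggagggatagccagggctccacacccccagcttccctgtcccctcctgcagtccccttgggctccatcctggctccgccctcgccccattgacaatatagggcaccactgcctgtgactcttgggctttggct

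Both genes that hold the repeat in their window were measured, with different outcomes. Rarb was at 8.95, 8.49, 8.92, 8.77 and 9.20 in liver. It was at 6.32, 6.72, 6.06, 6.37 and 6.67 in heart and at 5.61, 5.54, 6.06, 6.09 and 5.35 in brain. The liver arrays lay above all others, and heart and brain overlapped at their edge. The liver mean of 8.86 ± 0.26 exceeded the brain mean of 5.73 ± 0.33 8.78-fold (brain minus liver -3.13, SE 0.16, adjusted p = 5.53e-11) and the heart mean of 6.43 ± 0.27 5.41-fold (heart minus liver -2.44, SE 0.16, adjusted p = 2.51e-09). Heart exceeded brain 1.62-fold (brain minus heart -0.70, SE 0.16, adjusted p = 0.00576). The brain mean of Rarb was close to the limit for dim genes there, 5.66. Both differences from brain were thus taken against a level near unspecific signal. Cyp26a1 was dim in all 3 tissues, with means of 4.01 ± 0.21, 4.01 ± 0.15 and 4.11 ± 0.18 in brain, heart and liver and no call (adjusted p = 0.999 for brain against heart, 0.61 for brain against liver and 0.557 for heart against liver).

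Beside these values stand the liver markers already given. Rarb was highest on liver replicate 5, where the hepatocyte mean was highest and the stellate and macrophage means were lowest, and lowest on replicate 2. The part of hepatocyte, stellate or macrophage RNA in the Rarb difference was not tested. Without liver replicates 1, 3 and 4, brain minus liver was -3.11 (adjusted p = 2.29e-07) and heart minus liver -2.41 (adjusted p = 4.51e-06).

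Rarres2 encodes chemerin, a secreted attractant of immune cells whose gene was named for its response to retinoids. Heart values were 8.46, 7.59, 8.60, 7.74 and 7.35, brain values 8.30, 6.63, 7.53, 7.31 and 6.88, and liver values 7.37, 6.58, 6.97, 7.29 and 6.95. The 3 tissues overlapped. The means were 7.33 ± 0.65 (brain), 7.95 ± 0.55 (heart) and 7.03 ± 0.32 (liver). Heart exceeded liver 1.89-fold (0.91, SE 0.29, adjusted p = 0.0231). Brain minus heart was -0.62 (adjusted p = 0.177) and brain minus liver 0.30 (adjusted p = 0.544).

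With replicate number as a block in the fit, heart minus liver for Rarres2 passed at the same 0.91 (SE 0.17, limma adjusted p = 0.00112). In the fit without the block, the call for Rarres2 rested on single arrays. It was lost when heart replicate 1 was left out (0.79, adjusted p = 0.0619), and likewise for heart replicate 3 (0.75, adjusted p = 0.0681) and liver replicate 2 (0.80, adjusted p = 0.0587). Without both heart replicates 1 and 3 the difference was 0.53 (adjusted p = 0.213). Without liver replicates 1, 3 and 4 it did not pass either (adjusted p = 0.0606), although it was larger at 1.18, with 2 liver arrays left. Conversely, brain minus heart passed without brain replicate 1 (-0.86, adjusted p = 0.0306). The 3 arrays with the highest Rarres2 were also the 3 with the highest mean of 10 pericyte and smooth muscle genes: 7.87 on brain replicate 1, 8.20 on heart replicate 1 and 7.92 on heart replicate 3. That mean was 6.27 to 7.01 on the other brain arrays, 6.80 to 7.55 on the other heart arrays and 6.17 to 6.26 in liver. The mean of 11 fibroblast genes was also highest on these arrays within their tissues. It was 5.86 on brain replicate 1 against 5.43 to 5.52 on the other brain arrays. On heart replicates 1 to 5 it was 7.45, 6.70, 6.92, 6.75 and 6.34, and on liver replicates 1 to 5 it was 5.83, 5.47, 5.64, 5.73 and 5.35. Some other lists were high on these arrays too. The cardiomyocyte mean was 9.32 and 8.99 on heart replicates 1 and 3, against 7.81 to 8.40 on the other heart arrays. On brain replicate 1 the choroid plexus mean was 6.90, the stellate mean 6.19 and the astrocyte mean 5.98, each the highest in brain. The part of mural cell, fibroblast or other non-endothelial RNA in the Rarres2 values was not tested.

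Counted together, 2 of the 9 genes were higher in brain than in heart (8.29% of all genes) and 2 lower (7.11%). Against liver, brain had 3 higher (11.1% of all genes) and 3 lower (14%). Heart had 2 higher than liver (11.5%) and 3 lower (16.3%). Brain was higher than both other tissues for 2 of the 9 (4.7% of all genes), heart for 1 (3.73%) and liver for 3 (10.4%). With a log2 difference of at least 1 as well, 3 of the 9 were called between brain and heart (3.86% of all genes), 5 between brain and liver (7.38%) and 3 between heart and liver (6.51%). The median difference of the 9 genes was -0.10 for brain minus heart, 0.21 for brain minus liver and -0.04 for heart minus liver, against -0.03, 0.00 and 0.03 over all genes. The 9 genes were chosen for named roles with earlier results in view, and the 3 comparisons share arrays, so these counts describe the genes and no more.

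**Figure D3:**
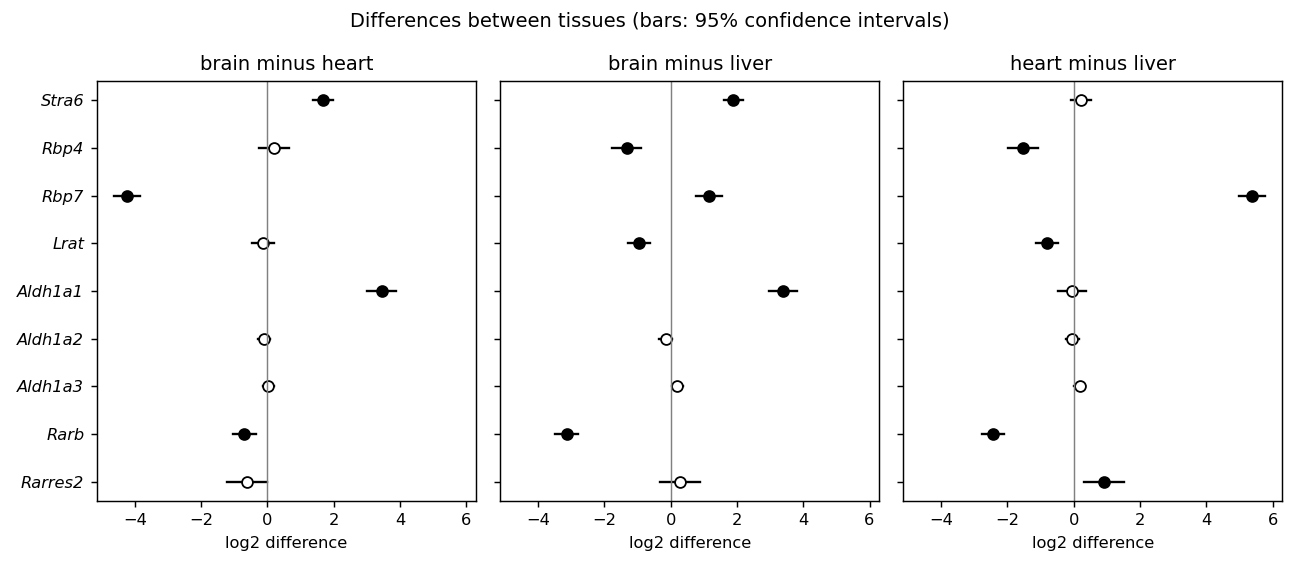
Log2 differences between tissues for the 9 genes (horizontal axes), 1 panel per comparison, with points for the limma estimates and bars for 95% confidence intervals. Filled points passed an adjusted p of 0.05. Rbp7 has the largest difference in both panels that include heart, at -4.23 and 5.39, and Aldh1a1 and Rarb the largest between brain and liver, at 3.38 and -3.13.

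Genes with profiles most like those of the members were sought over the 15 arrays. The measure was the root mean square log2 difference after each gene was centred on its own mean, and it was taken for the 5 members called in at least 2 comparisons with a log2 difference of at least 1. Nearest to Rbp7 were C1qtnf9 at 0.28, Kcna5 at 0.58 and Meox2 at 0.60. Nearest to Aldh1a1 were Rab11fip1 at 0.30, Grb14 at 0.37 and Slc16a9 at 0.37. Stra6 was closest to Dixdc1 at 0.20, Pdxk at 0.22 and Srarp at 0.22. Rarb was closest to Adh6b at 0.23, Pabpc4l at 0.25 and Ifi202b at 0.27, and Rbp4 to Ackr4 at 0.30, Nudt16 at 0.30 and Dpy19l3 at 0.31. These distances describe tissue profiles only.

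The rest of the pathway was followed in 63 other genes that the annotation names out of 68 listed. Of them, 12 were higher in brain than in heart and 7 lower, 9 higher and 10 lower in brain than in liver, and 9 higher and 10 lower in heart than in liver. Over all genes the shares were 8.29% higher and 7.11% lower for brain against heart, 11.1% and 14% for brain against liver, and 11.5% and 16.3% for heart against liver. The median differences of the 63 genes were -0.04, -0.01 and -0.01. Of the 63 genes, 28 were dim in all tissues, as were 7459 of all 19938 genes.

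Among 12 carriers and uptake genes, 1 was higher and 4 lower in brain than in heart. Against liver, 1 was higher and 2 lower in brain, and 4 were higher and 1 lower in heart. All genes gave 8.29% higher and 7.11% lower, 11.1% and 14%, and 11.5% and 16.3% in these comparisons. Ttr, transthyretin, which binds Rbp4 in plasma and keeps it from being lost through the kidney, was at 12.49 ± 0.30 (brain), 5.33 ± 0.28 (heart) and 8.44 ± 0.87 (liver) (16.5-fold for brain over liver, adjusted p = 7.86e-09). Ttr was dim in heart, so its 7.16 log2 difference from brain (adjusted p = 7.41e-12) was taken against a level near unspecific signal. Choroid plexus epithelium is a strong source of Ttr; on brain replicates 1 to 5 Ttr was 12.72, 12.77, 12.58, 12.26 and 12.08, and the choroid plexus mean was highest on replicate 1. The part of choroid plexus RNA in the Ttr level was not tested. Lpl, which frees fatty acids and also acts on retinyl esters in lipoproteins, was at 6.48 ± 0.70 (brain), 11.03 ± 0.25 (heart) and 6.07 ± 0.65 (liver) (23.5-fold and 31-fold higher in heart, adjusted p = 5.7e-09 and 1.03e-09). Cardiomyocyte markers were also high in heart, and the part of cardiomyocyte RNA in the Lpl difference was not tested. Cd36, a fatty acid transporter, was at 4.13 ± 0.38 (brain, dim), 12.37 ± 0.13 (heart) and 11.30 ± 0.14 (liver). Fabp5, which can carry retinoic acid to the receptor Ppard, was at 5.90 ± 0.44, 10.51 ± 0.15 and 10.01 ± 0.26 in the same order, and its heart over liver call (0.49, adjusted p = 0.0412) was lost under several settings, for example 0.42 without liver replicate 1 (adjusted p = 0.11). Crabp2, a retinoic acid carrier, was dim everywhere at 5.14 ± 0.15, 5.51 ± 0.30 and 5.16 ± 0.08. Heart exceeded brain and liver in Crabp2 at the edge of the test (adjusted p = 0.0494 and 0.0384), and leaving out most single arrays ended both calls, with adjusted p-values of 0.139 and 0.111 when heart replicate 4 was dropped.

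Among 32 enzymes, 6 were higher and 3 lower in brain than in heart, 3 higher and 6 lower in brain than in liver, and 3 higher and 6 lower in heart than in liver. The shares over all genes were again 8.29% and 7.11%, 11.1% and 14%, and 11.5% and 16.3%. Dhrs3, which returns retinaldehyde to retinol and is known to be induced by retinoic acid, was called in all 3 comparisons. It was at 11.53, 11.50, 11.50, 11.40 and 11.84 in liver, 10.38, 10.57, 10.49, 10.23 and 10.82 in heart, and 9.68, 8.68, 9.32, 8.46 and 9.53 in brain. The order from liver to heart to brain held without overlap, as 2.08-fold for liver over heart (adjusted p = 0.000466) and 2.57-fold for heart over brain (adjusted p = 5.83e-05). Adh1, an alcohol dehydrogenase that can oxidise retinol, was highest in heart, at 9.85 ± 0.42 against 7.82 ± 0.47 in brain (4.08-fold, adjusted p = 2.61e-06) and 7.63 ± 0.30 in liver (4.64-fold, adjusted p = 5.42e-07). Fibroblast markers were also highest in heart, and the part of fibroblast RNA in the Adh1 difference was not tested. Dhrs7 was highest in liver, at 9.80 ± 0.11 against 8.68 ± 0.17 in brain and 8.62 ± 0.15 in heart (2.18-fold and 2.27-fold, adjusted p = 3.8e-08 and 2.68e-08). Lipe, a lipase that can split retinyl esters, was lowest in liver, at 6.38 ± 0.10 against 7.70 ± 0.15 in brain and 8.18 ± 0.35 in heart (2.5-fold and 3.49-fold, adjusted p = 4.09e-07 and 8.93e-09). Its lower level in brain than in heart (-0.48, adjusted p = 0.0175) was lost without heart replicates 1 and 3 (-0.25, adjusted p = 0.142), without heart replicate 3 alone (-0.43, adjusted p = 0.0523) and without brain replicate 1 (-0.42, adjusted p = 0.0528).

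Cyp26b1, the other main enzyme of retinoic acid breakdown, was at 6.94, 6.18, 7.15, 6.79 and 8.13 in liver, 6.30, 6.69, 6.38, 6.86 and 6.87 in heart, and 6.13, 6.14, 6.20, 6.26 and 6.11 in brain. Liver spread widest and overlapped both other tissues. Liver exceeded brain 1.83-fold (brain minus liver -0.87, SE 0.24, adjusted p = 0.0115). That call was lost without liver replicates 1, 3 and 4 (adjusted p = 0.0678), although the difference was no smaller at -0.99, with 2 liver arrays left. Heart minus liver was -0.42 (adjusted p = 0.22) and passed without liver replicate 2 (-0.63, adjusted p = 0.0311). Brain minus heart was -0.45 (adjusted p = 0.253) and passed in a fit of those 2 tissues alone (adjusted p = 0.0168).

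Of the other retinoid receptors, Rxra and Rarg were higher in liver than in brain and Rara was not called. Among 9 receptors and cofactors, 3 were higher and none lower in brain than in heart, 2 higher and 2 lower in brain than in liver, and 1 higher and 2 lower in heart than in liver, beside 8.29% and 7.11%, 11.1% and 14%, and 11.5% and 16.3% of all genes. Rara, the alpha receptor, was at 7.28 ± 0.25 (brain), 7.12 ± 0.22 (heart) and 7.48 ± 0.25 (liver) with no call. Heart minus liver for Rara was -0.35 (adjusted p = 0.0717), and it passed after each array was centred on its median (-0.41, adjusted p = 0.0456) and without heart replicates 1 and 3 (-0.49, adjusted p = 0.0357). Rarg, the gamma receptor, was at 7.42 ± 0.16, 7.58 ± 0.19 and 7.89 ± 0.26, with liver above brain (brain minus liver -0.48, adjusted p = 0.00763). Without liver replicates 1, 3 and 4 that difference was -0.37 (adjusted p = 0.0895). Heart minus liver for Rarg was -0.32 (adjusted p = 0.0674), and it passed after median centring (-0.37, adjusted p = 0.046). Rxra, the partner receptor, was highest in liver, at 8.04 ± 0.27 against 6.95 ± 0.32 in brain (2.14-fold, adjusted p = 1.46e-05) and 7.30 ± 0.13 in heart (1.67-fold, adjusted p = 0.000892). Without liver replicates 1, 3 and 4 its heart minus liver difference of -0.74 became -0.45 (adjusted p = 0.104). Ncoa1, a coactivator, was highest in brain, at 8.62 ± 0.11 against 7.56 ± 0.17 in heart and 7.26 ± 0.20 in liver (2.09-fold and 2.56-fold, adjusted p = 5.53e-07 and 9.93e-09). Its heart over liver difference (0.30, adjusted p = 0.039) was lost under several settings, for example 0.20 without heart replicates 1 and 3 (adjusted p = 0.246).

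Among 13 retinoid-responsive genes and chemerin receptors, 2 were higher and 1 lower in brain than in heart, 3 higher and 2 lower in brain than in liver, and 1 higher and 2 lower in heart than in liver. Among all genes 8.29% and 7.11%, 11.1% and 14%, and 11.5% and 16.3% were called. Rai14, named as a retinoic acid induced gene, fell from brain to heart to liver, at 9.45 ± 0.06, 8.00 ± 0.14 and 7.13 ± 0.19 (2.72-fold for brain over heart, adjusted p = 2.68e-09, and 1.84-fold for heart over liver, adjusted p = 1.07e-06). Its order was the reverse of that of Dhrs3. Ccrl2, which binds chemerin without signalling, was highest in brain, at 8.60 ± 0.21 against 7.50 ± 0.26 in heart and 7.95 ± 0.10 in liver (2.15-fold and 1.57-fold, adjusted p = 2.66e-06 and 0.000462). Its heart minus liver difference of -0.45 (adjusted p = 0.00937) was -0.43 without liver replicates 1, 3 and 4 (adjusted p = 0.119). Cmklr1, the signalling receptor for chemerin, was at 6.32 ± 0.26, 5.98 ± 0.08 and 6.19 ± 0.25 with no call (adjusted p = 0.0845 for brain against heart, 0.551 for brain against liver and 0.246 for heart against liver).

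**Figure D4:**
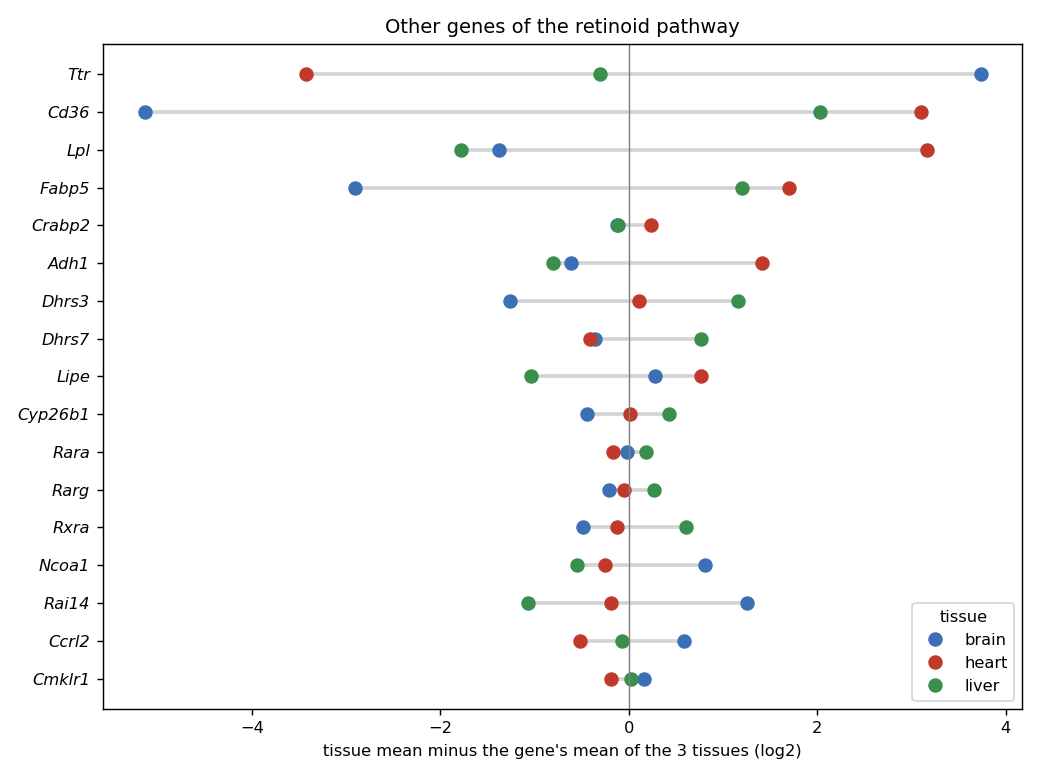
Mean log2 value of 17 other pathway genes in brain, heart and liver, each minus the gene's mean of the 3 tissues (horizontal axis). Ttr lies highest in brain, Cd36 and Fabp5 lowest in brain, Lpl and Adh1 highest in heart and Dhrs3 and Dhrs7 highest in liver, while Rara, Cmklr1 and Crabp2 lie close together.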

How the data were processed

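Log2 values of 35556 probe sets on 15 Affymetrix mouse gene arrays were deposited by the authors. Per the submitters' processing notes, Affymetrix Power Tools and RMA were used. Tool versions and the build behind the probe sets were not given in the sources used here. RMA makes the arrays' distributions nearly equal and compresses large differences. The values were used as deposited, and array medians were 5.98 to 6.11. The number of arrays limits the precision. The platform annotation gave 21789 probe sets 1 symbol and 1621 several; 12146 were not listed. Of those with 1 symbol, 21698 matched the RefSeq table of GRCm38.p6. The probe set with the highest mean was kept for each of 19938 genes, 999 of which had several.

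The model, run with limma 3.58.1 in R 4.3.3 (lmFit and eBayes), gave each tissue a mean over all 15 arrays (12 residual and 4.75 prior degrees of freedom), with Benjamini-Hochberg adjustment over all genes within each of 3 contrasts. Tests are two-sided, folds are powers of 2 of log2 differences, and intervals are 95% and unadjusted. The fit was tested on simulated data. Promoter sequences are RefSeq's. The members, lists and tests were chosen with earlier results of these data known. All 9 members are named. Other pathway genes were named when among the 4 largest called differences of at least 1 in their role list, with Crabp2, Ttr, Rara, Rarg, Rxra, Cyp26b1 and Cmklr1 added whatever their values; Cyp26a1, Bco1 and the marker genes were named besides. Replicate numbers were shared between tissues and were not taken as pairs. Pairing was accepted only if every same-numbered pair deviated together, with a correlation of deviations from tissue means over 0.1. That correlation was over 0.1 in 6 of 15 same-numbered pairs (median 0.095) and in 2 of 60 other pairs (median -0.024). Alternatives were a filter on low values, centring of arrays, a variance trend, 2-tissue fits, a replicate block, arrays left out, the mean of a gene's probe sets and a minimum difference. Each member had 1 probe set and only Fabp5 of the other genes had more, so the probe set mean could change no member's value.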

Additional observations from a re-analysis of the deposited data

Results flagged for a closer look

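Over the 9 members and the 17 other pathway genes described, 78 groups of 5 arrays were examined for a single array far from the others, and 4 had one; chance gives about 1 in 20 groups. Rbp4 was 7.28 on liver replicate 5 against 6.08 to 6.39 on the other liver arrays. Without that array liver still exceeded brain (brain minus liver -1.12, limma adjusted p = 9.7e-05) and heart (heart minus liver -1.33, adjusted p = 1.95e-05). Ttr was 9.98 on the same array against 7.93 to 8.16, where the hepatocyte list was also highest. Without it brain minus liver was 4.43 (adjusted p = 9.09e-13). Lpl was 5.26 on brain replicate 2 against 6.58 to 7.01. Without it brain minus liver was 0.71 (adjusted p = 0.0509), against 0.40 with all arrays. Rarg was 8.35 on liver replicate 1 against 7.71 to 7.86. Without it brain minus liver was -0.36 (adjusted p = 0.017).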

How the results depend on the processing

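For single members, 628 of 639 comparisons under an alternative setting kept their side of the threshold, 5 gained a call and 6 lost one. For the other pathway genes described, 1154 of 1221 did, 9 gained a call and 58 lost one. No difference that was called with or without the alternative setting changed its direction. Some uncalled differences did. For example, Aldh1a1 heart minus liver was -0.06 with all arrays and 0.13 without liver replicates 1, 3 and 4. With a log2 difference of at least 1 required, heart against liver had 3 members called in place of 5, and the other pathway genes had 9, 9 and 8 in place of 19 each for brain against heart, brain against liver and heart against liver. Without liver replicates 1, 3 and 4, chosen after seeing the data for their macrophage markers, heart against liver had 3 members and 12 other pathway genes called, with 2 liver arrays left. The low-value filter kept 6 of the 9 members and 33 of the 63 other pathway genes. The replicate block raised the calls over all genes from 3070 to 3369 for brain against heart, from 5003 to 5282 for brain against liver and from 5538 to 5936 for heart against liver. With the block, 5 members were called between brain and heart in place of 4, the added one being Rarres2 (-0.62, limma adjusted p = 0.0234), and 6 and 5 in the other comparisons, as without it. Rara heart minus liver also passed with the block (-0.35, adjusted p = 0.017). In 20 of 30 cases an array correlated best with its own number in another tissue, a hint from the data and not the design. Levels near those of olfactory receptor genes limit what can be said of Lrat, Aldh1a2, Aldh1a3 and Crabp2. The same holds for Rbp4 in brain and heart and for Rarb in brain.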
